A study of Mus musculus with 2207 samples.

Results

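Capn11, Baiap3, Meis1, Nog and Nlrp5-ps are 5 genes whose mean level in cortical neurons was lowest, relative to wild type, in mice that carry 1 inactivated copy of Ehmt1. They are 5 of 52636 genes in the deposited tables, and 23853 genes could be ranked because they were above 0 in at least 10% of the neurons of either genotype in both plate formats. The genes were chosen from the measured ratios themselves: each neuron mean in Ehmt1Δ/+ pools was divided by that of the matching wild-type (WT) pool, in 96-well and in 384-well plates, and the weaker of the 2 log2 differences set the rank. On that scale Nlrp5-ps ranked 2 (log2 -2.05), Capn11 5 (-1.50), Nog 11 (-1.31), Meis1 12 (-1.30) and Baiap3 17 (-1.18). Just inside, Baiap3 stood next to Zim1 at rank 18 (-1.17), which is just outside. Other genes rank between them and are not described here. Sst and Nr2f2, at ranks 7 and 8, were left out by the choice. The differences in those 4 pools are therefore a description and carry no test. Nlrp5-ps, Meis1 and Nog passed the 10% limit only through the WT pools, so the choice favoured a low share of het neurons.

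The measurement was single-nucleus RamDA-seq, a full-length total RNA method, on nuclei of the frontal cortex of male C57BL/6 mice (C57BL6/J background per the study's methods) at 14 weeks of age. Each of the 6 pools held nuclei from 3 mice. By the labels, all mice had been given tamoxifen (100 mg/kg) in 2 doses at the age of 3 weeks. The study's methods put 1 week between the doses, and its text names tamoxifen for mice of the CreER lines. In 96-well plates the pools were WT (Ehmt1+/+) and het (Ehmt1Δ/+). In 384-well plates the WT pool was Ehmt1+/+ and the het pool Ehmt1Δ/+, both with the Ehmt1 iTg allele and without CamKII-CreER, and a further pair, Ehmt1+/+ and Ehmt1Δ/+, carried both the iTg allele and CamKII-CreER. These genotypes are those of the labels; the study's own text can be read as giving CamKII-CreER to all 4 groups in 384-well plates, and nothing in the files settled this. The iTg allele yields a tagged GLP protein, the product of Ehmt1, once Cre has acted, and CamKII-CreER drives Cre in forebrain neurons after birth. This last group is called the pair with CamKII-CreER below, and its pools were not used to choose the genes. No label says which mouse a nucleus came from. A pool is therefore 1 unit, and a difference between 2 pools has no replicate check.

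GLP is a histone H3 lysine 9 methyltransferase that forms a complex with G9a and represses transcription. The 5 genes belong to no common pathway. Capn11 encodes a calpain, a calcium-dependent cysteine protease, best known from the testis. Nlrp5-ps is a pseudogene related to Nlrp5, a NOD-like receptor gene of the oocyte. Baiap3 encodes a protein of the Munc13 family that acts in dense-core vesicle traffic. Meis1 encodes a TALE homeodomain transcription factor that pairs with PBX proteins. Nog encodes Noggin, a secreted antagonist of bone morphogenetic proteins (BMPs). In the cortex excitatory neurons are marked by Slc17a7, the vesicular glutamate transporter, and inhibitory neurons by Gad1, which makes GABA.

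All 5 genes lie on the minus strand of the mouse genome (mm10, positions from GENCODE M21). Capn11 (ENSMUSG00000058626.16) spans chr17:45630204-45659325 with 2708 bases of exons and overlaps no other gene. Nog (ENSMUSG00000048616.4) spans chr11:89300638-89302332 with 1695 bases of exons and likewise overlaps none. Baiap3 (ENSMUSG00000047507.12) spans chr17:25242659-25256364 and overlaps Tsr3 and Mir3547, and 55.4% of its values above 0 were not whole reads, so it shared reads with other features. Meis1 (ENSMUSG00000020160.18) spans chr11:18879817-19018985 with 5 overlapping genes, and 19.1% of its values were not whole reads. Nlrp5-ps (ENSMUSG00000041596.12) spans chr7:14530652-14622479, is annotated as a transcribed unprocessed pseudogene and overlaps 3 other pseudogenes, and 41.5% of its values were not whole reads. For Capn11 this share was 0.291%, and for Nog it was 0%. Levels of Nlrp5-ps, Baiap3 and Meis1 may thus hold reads of overlapping or similar genes.

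Promoter sequences were taken from RefSeq (GRCm38.p6), which had an entry for 3 of the 5 genes. They are shown for their CG pairs, in capitals, the sites at which DNA of promoters can be methylated. Each line gives the 250 bases before the RefSeq start of transcription on the minus strand, 5′ to 3′. For Capn11 and Meis1 this start lies inside the GENCODE span given above, so the window overlaps the end of that span.
Capn11, chr17:45659310-45659559: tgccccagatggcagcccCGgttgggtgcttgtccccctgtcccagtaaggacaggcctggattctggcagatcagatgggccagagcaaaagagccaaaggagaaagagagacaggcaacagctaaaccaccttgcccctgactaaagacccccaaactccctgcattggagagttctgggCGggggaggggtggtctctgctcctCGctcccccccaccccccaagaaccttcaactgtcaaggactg
Baiap3, chr17:25256365-25256614: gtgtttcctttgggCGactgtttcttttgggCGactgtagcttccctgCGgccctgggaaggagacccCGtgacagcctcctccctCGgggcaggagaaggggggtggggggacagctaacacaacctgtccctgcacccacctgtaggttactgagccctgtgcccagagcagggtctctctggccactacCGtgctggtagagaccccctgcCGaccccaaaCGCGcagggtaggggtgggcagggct
Meis1, chr11:19018970-19019219: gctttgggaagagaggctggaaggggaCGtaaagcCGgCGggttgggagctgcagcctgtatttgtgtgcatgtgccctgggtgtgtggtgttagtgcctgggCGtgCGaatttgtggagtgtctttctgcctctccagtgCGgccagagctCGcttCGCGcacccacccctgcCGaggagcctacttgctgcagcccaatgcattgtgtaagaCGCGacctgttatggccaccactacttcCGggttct

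The Capn11 promoter held 3 CG pairs, the Baiap3 promoter 9 and the Meis1 promoter 13, against a median of 6 over 32851 promoters of the same length. Of all promoters, 29.03% held fewer CG pairs than Capn11, 59.7% fewer than Baiap3 and 68.5% fewer than Meis1. GC content was 59.6% for Capn11, 64.4% for Baiap3 and 59.6% for Meis1, all above the median of 52.4%. Since Meis1 is itself a factor that binds DNA, the core motif of MEIS proteins, TGACAG or its complement CTGTCA, was searched on both strands. It occurred as CTGTCA 13 bases before the RefSeq start of Capn11, which is inside its GENCODE span. It occurred as TGACAG 180 bases before the RefSeq start of Baiap3, and did not occur in the Meis1 window. The motif was found in 15.9% of all promoters, so a match is only a description of the letters.

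Several facts of the libraries bear on what follows. Of 2207 nuclei, 1664 were labelled neurons. Median reads per neuron were 323273 to 397880, but single neurons of the 384-well plates ranged from 43592 to 1332269 reads, whereas those of the 96-well plates stayed between 240330 and 539103. Markers differed between pools as well. Summed RPKM (reads per kilobase of exon, scaled to the mapped reads of the nucleus) of 9 markers of inhibitory neurons from the medial ganglionic eminence, among them Sst and Pvalb, was 141.2, 115.8 and 129.6 in the 3 control pools and 50.7, 54.6 and 68.9 in their het partners. Most of this was Sst in 5 of the 6 pools, and the other 8 markers summed to 29.9, 27.2 and 28.1 in the controls and to 31.3, 20.2 and 24.7 in het. The 13 markers of all inhibitory neurons summed to 125.1, 117.2 and 90.5 in the controls and to 91.8, 70.3 and 85.2 in het, and 11 markers of those from the caudal ganglionic eminence to 85.6, 71.7 and 57.6 and to 54.2, 58.2 and 59.8. The 6 markers of microglia summed to 3.42 to 5.58 in neurons, with Tmem119 at 0 in 1 pool, and the 6 of oligodendrocytes to 6.73 to 14.98. The 3 markers of oligodendrocyte precursors summed to 8.34 in het neurons of the 96-well plates and to 0.2462 to 0.367 in the other pools. The part of these differences in the results below was not tested. Ehmt1 itself was at 18.7, 19.5 and 20.7 RPKM in the control neurons and at 31.2, 31.7 and 33.9 in the het neurons. The gene-level value thus set het and control pools apart but was higher in het, so it does not show the lost copy. It does not check the CamKII-CreER labels either. In the 384-well plates it was 19.5 without and 20.7 with CamKII-CreER in control neurons, and 31.7 and 33.9 in het neurons. The reason for these values was not tested.

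Capn11, the calpain, was low in neurons of every het pool. Its mean was 0.923 RPKM in WT and 0.262 in het neurons of the 96-well plates. In the 384-well format it was 4.91 in WT and 0.535 in het neurons. In the pair with CamKII-CreER it was 7.82 in the control and 0.277 in the het pool. The 3 het pools lay between 0.262 and 0.535 RPKM and the 3 control pools between 0.923 and 7.82, and most of the spread was among the controls. The pairs without CamKII-CreER chose the gene, so this order of the pools is a description, and it was not counted over all genes. The ratio of control to het was 3.52, 9.17 and 28.3 in the 3 pairs, or log2 differences of -1.50, -2.98 and -4.39 on log2(RPKM + 0.1). Only the last value comes from pools outside the choice of genes.

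The share of neurons with any Capn11 read followed the means. It was 22.9% in WT (58 neurons, exact 95% binomial interval 17.9 to 28.6) and 10.6% in het neurons (28 neurons, 7.14 to 14.9) in the 96-well plates. In the 384-well format it was 27.4% (78 neurons, 22.3 to 32.9) and 10.5% (32 neurons, 7.26 to 14.4). With CamKII-CreER it was 36.7% (31.02 to 42.7) and 6.43% (18 neurons, 3.85 to 9.97). The intervals of control and het did not meet in any pair, and they cover counting error only. In the pairs without CamKII-CreER, which chose the gene, this is a description. How many of all genes had intervals that did not meet was not counted. Neurons were also thinned to the same number of reads within a plate format, and those with fewer reads were left out. The expected shares were then 21.2% and 10.1%, 25.8% and 8.11%, and 34.6% and 5.32%. More het than control neurons were left out: 34 against 18, 26 against 18, and 45 against 26. The share also differed between the control pools, since the intervals of the 96-well WT pool and of the control pool with CamKII-CreER did not meet, and so did the number of nuclei at high level. A value of 10 RPKM or more was reached by 6 WT neurons of the 96-well plates, by 44 WT neurons of the 384-well plates and by 71 control neurons with CamKII-CreER, against 2, 4 and 2 het neurons.

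**Figure D1:**
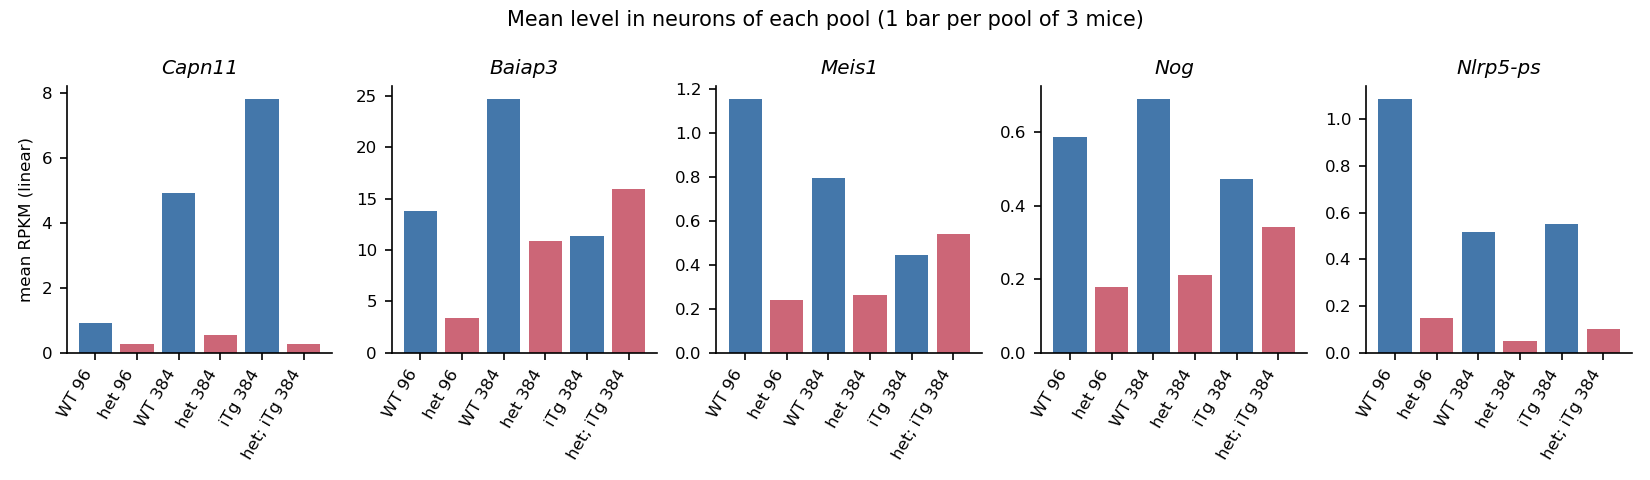
Mean RPKM of each gene over the neurons of each pool, on a linear axis that starts at 0 and differs between the genes, with 1 bar per pool (blue for control pools WT and iTg, red for Ehmt1Δ/+ or het pools) and no error bars. The iTg pools are the pair with CamKII-CreER, in which Capn11 and Nlrp5-ps are lower in het whereas Baiap3 and Meis1 are not.

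Nlrp5-ps, the pseudogene, was a rare transcript that was rarer still in het neurons. Its mean was 1.09 RPKM in WT and 0.150 in het neurons of the 96-well plates, 0.515 and 0.0488 in the 384-well format, and 0.551 and 0.1004 in the pair with CamKII-CreER. All 3 het pools were below all 3 control pools, which is a description, since the pairs without CamKII-CreER chose the gene. This order was not counted over all genes. The ratios of control to het were 7.25, 10.6 and 5.49, and the log2 differences -2.25, -2.05 and -1.70. Reads were seen in 20.2% of WT neurons (51 neurons, exact interval 15.4 to 25.6) and in 1.89% of het neurons (5 neurons, 0.615 to 4.35) of the 96-well plates. In the 384-well format the shares were 12.3% (35 neurons, 8.71 to 16.7) and 2.29% (7 neurons, 0.925 to 4.66), and with CamKII-CreER 13.1% (36 neurons, 9.34 to 17.7) and 2.50% (7 neurons, 1.01 to 5.08). The intervals again did not meet, which was not counted over all genes. The het means rest on very few nuclei: the 3 highest held 86.7%, 77.4% and 81.4% of the summed value of their pools, against 17.8%, 23.1% and 25.1% in the controls.

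Baiap3, the Munc13 family member, was the most widely detected of the 5, with reads in 1175 of 1664 neurons (70.6%). Capn11 was above 0 in 18.9% of them, Meis1 in 12.3%, Nog in 9.38% and Nlrp5-ps in 8.47%. Mean Baiap3 was 13.8 RPKM in WT and 3.37 in het neurons of the 96-well plates, and 24.7 and 10.8 in the 384-well format. In the pair with CamKII-CreER it was 11.4 in the control and 15.9 in the het pool. The difference thus had the opposite sign in the pair that was not used to choose the gene (log2 -2.01, -1.18 and 0.48), and the 3 control pools overlapped the 3 het pools. The share of neurons with Baiap3 was 73.5% (exact interval 67.6 to 78.8) and 54.7% (48.5 to 60.8) in the 96-well plates. It was 78.2% and 76.1% in the 384-well format and 71.3% and 68.6% with CamKII-CreER, close within each pair. Single neurons weighed on these means. The highest Baiap3 value of a neuron in which neither Slc17a7 nor Gad1 led was 547 RPKM, in the control pool with CamKII-CreER, and without such neurons (0 to 2 per pool) that pair was at 9.46 and 15.9 (log2 0.75). Values of 10 RPKM or more were found in 26 WT and 11 het neurons of the 96-well plates, in 39 and 29 of the 384-well plates, and in 21 and 26 with CamKII-CreER.

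Meis1, the homeodomain factor, had means of 1.16 RPKM in WT and 0.238 in het neurons of the 96-well plates. The values were 0.797 and 0.263 in the 384-well format, and 0.444 and 0.538 with CamKII-CreER. Here too the pair outside the choice went the other way (log2 -1.89, -1.30 and 0.23). The 384-well difference rested in part on 1 WT neuron at 65.5 RPKM in which neither Slc17a7 nor Gad1 led. Without neurons that had no class, the WT mean was 0.571 and the difference -0.88 in place of -1.30, which is above the log2 -1 used here as a limit. Reads were present in 52 WT neurons (20.6%) and 29 het neurons (10.9%) of the 96-well plates. They were present in 39 (13.7%) and 29 (9.48%) of the 384-well plates, and in 26 (9.45%) and 30 (10.7%) with CamKII-CreER.

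Nog, the BMP antagonist, had means of 0.588 RPKM in WT and 0.178 in het neurons of the 96-well plates, 0.691 and 0.211 in the 384-well format, and 0.474 and 0.342 with CamKII-CreER. All 3 control pools were above all 3 het pools, but the last pair was closer (log2 -1.31, -1.35 and -0.38). The other pairs chose the gene, so this order is a description, and it was not counted over all genes. Neurons with Nog were 15.02% (38 neurons) and 5.28% (14 neurons), 13.3% (38 neurons) and 5.88% (18 neurons), and 9.45% (26 neurons) and 7.86% (22 neurons). In the pair with CamKII-CreER, 2 of the 5 genes, Capn11 and Nlrp5-ps, were lower by log2 -1 or more, where 0.44% of the 23853 ranked genes were. This count is the one comparison of genotypes made on pools that did not choose the genes.

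**Figure D2:**
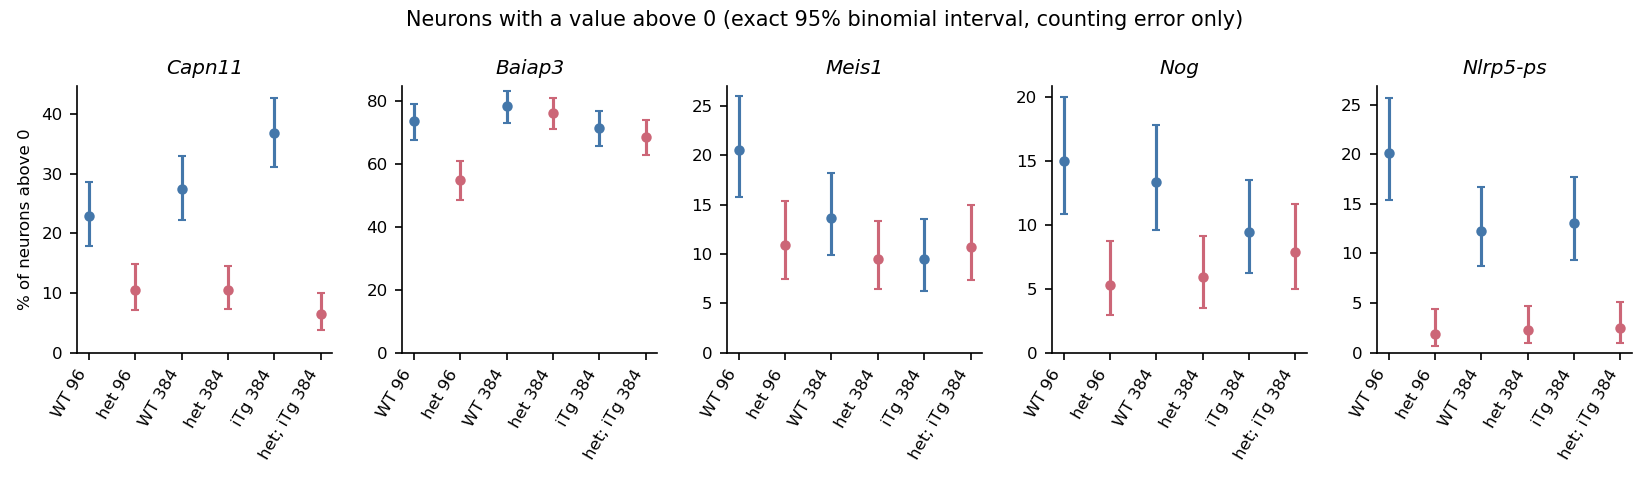
Percent of neurons with any read of each gene in each pool (blue control, red het), on an axis that differs between the genes, with exact 95% binomial intervals as bars, which cover counting error only. The control and het intervals of Capn11 and Nlrp5-ps do not meet in any pair, whereas those of Baiap3 meet in both 384-well pairs. The pairs without CamKII-CreER chose the genes, and intervals that do not meet were not counted over all genes.

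Because a pool mean mixes how many neurons of a type were caught with how much RNA each holds, neurons were classed as excitatory or inhibitory by the larger of Slc17a7 and Gad1. A bulk difference alone cannot tell fewer cells from less RNA per cell. The inhibitory share was 24.5% in WT (62 neurons, exact interval 19.3 to 30.3) and 16.2% in het neurons (43 neurons, 11.999 to 21.2) of the 96-well plates. It was 25.6% (73 neurons, 20.6 to 31.1) and 16.99% (52 neurons, 12.96 to 21.7) in the 384-well format, and 19.3% (53 neurons, 14.8 to 24.4) and 17.9% (50 neurons, 13.6 to 22.9) with CamKII-CreER. The share was thus lower in het in both pairs that chose the genes, with intervals that meet, and the 2 pools with CamKII-CreER were alike within counting error. Reads of the class genes were not limited to their class. Gad1 was above 0 in 57.5% of oligodendrocytes of the 96-well WT pool and 33.8% of the 96-well het pool. In oligodendrocytes of the 384-well pools, which were much shallower and cannot be compared with those, it was above 0 in 6.52% to 16.4%. Where these reads came from was not tested. In neurons classed as excitatory, Gad1 averaged 2.34 RPKM in the 96-well WT pool and 0.335 to 0.518 in the other 5 pools. Of the 3 precursor markers, nearly all of the summed level in the 96-well het pool was in the inhibitory class, at 50.6 RPKM against 0.155 in the excitatory class. The part of these values in the comparisons of classes was not tested.

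Baiap3, Meis1 and Nog were higher in inhibitory neurons, whereas Capn11 and Nlrp5-ps did not differ detectably between the classes. This comparison was made within each pool and does not use the genotype difference. It is still not independent of the choice of genes. The inhibitory share was lower in het in both pairs that chose them, and this favours genes higher in inhibitory neurons. In excitatory neurons mean Baiap3 was 6.72 and 1.80 RPKM (WT and het, 96-well), 10.2 and 3.88 (384-well), and 4.77 and 4.73 (with CamKII-CreER). In inhibitory neurons it was 35.7 and 6.75, 63.99 and 44.9, and 28.9 and 67.5. The inhibitory value was the higher in 6 of 6 pools, by log2 1.85 to 3.81, and the fitted difference was 2.79 with a standard error of 0.26 (6.93-fold, limma with the pool as block, adjusted p = 0.000296).

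Meis1 was at 0.345 and 0.154, 0.405 and 0.171, and 0.159 and 0.282 RPKM in excitatory neurons, and at 3.65 and 0.680, 1.05 and 0.720, and 1.31 and 1.71 in inhibitory neurons. It was higher in the inhibitory class of 6 of 6 pools (log2 2.03 ± 0.25 standard error, 4.08-fold, limma adjusted p = 0.000945). Nog was at 0.326 and 0.0714, 0.420 and 0.133, and 0.167 and 0.201 RPKM in excitatory neurons, and at 1.40 and 0.661, 1.49 and 0.592, and 1.77 and 0.992 in inhibitory neurons. It too was higher in 6 of 6 pools (log2 1.97 ± 0.17, 3.91-fold, limma adjusted p = 0.000216). For each of these 3 genes the exact two-sided sign-flip permutation test over the 6 pools gave p = 0.03125, the smallest that 6 pools allow.

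Capn11 was at 0.938 and 0.295, 4.79 and 0.615, and 7.64 and 0.283 RPKM in excitatory neurons. In inhibitory neurons it was at 0.878 and 0.105, 5.38 and 0.156, and 8.77 and 0.250. The inhibitory value was the higher in 2 of 6 pools (log2 -0.38 ± 0.24, limma adjusted p = 0.266, exact permutation p = 0.344), with pool differences from -1.48 to 0.20. Nlrp5-ps was at 1.10 and 0.181, 0.606 and 0.0561, and 0.511 and 0.0576 RPKM in excitatory neurons, and at 1.05 and 0, 0.269 and 0.0145, and 0.739 and 0.297 in inhibitory neurons. The inhibitory value was the higher in 2 of 6 pools (log2 -0.19 ± 0.36, limma adjusted p = 0.711, exact permutation p = 0.625), and pool differences spanned -1.49 to 1.33. In all, 3 of the 5 genes were called higher in inhibitory neurons and none lower, against 18.7% of the 27710 genes tested called higher and 18.5% called lower. Since the choice favours such genes, this count is a description.

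**Figure D3:**
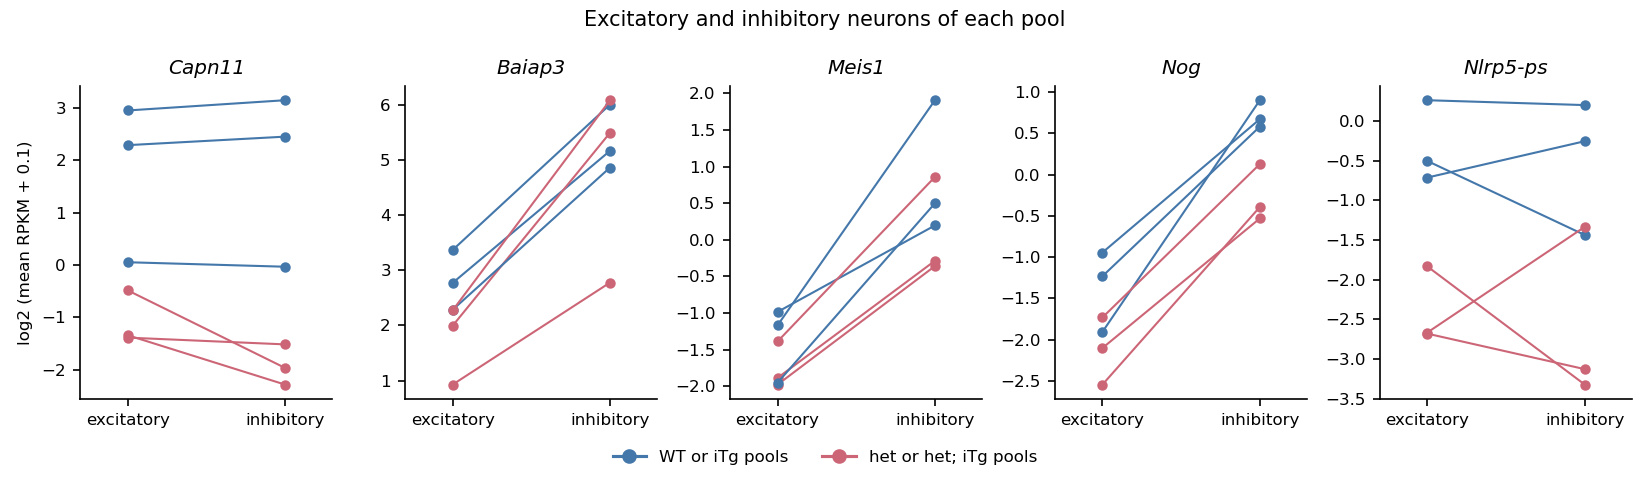
Level of each gene on log2(mean RPKM + 0.1) in excitatory and inhibitory neurons, with a line joining the 2 classes of each of the 6 pools (blue control, red het) and an axis that differs between the genes. All 6 lines of Baiap3, Meis1 and Nog rise towards inhibitory neurons, whereas 2 of the 6 do for Capn11 and for Nlrp5-ps.

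Within the classes Capn11 stayed lower in het neurons of either kind. The log2 differences in excitatory neurons were -1.39 (96-well), -2.77 (384-well) and -4.34 (with CamKII-CreER), and in inhibitory neurons -2.25, -4.42 and -4.66. Nlrp5-ps gave -2.10, -2.18 and -1.95 in excitatory and -3.52, -1.69 and -1.08 in inhibitory neurons. The first of the latter rests on 0 of 43 het nuclei, which allows a share of up to 6.98%. With the nuclei classed by sums of markers instead, the difference of Nlrp5-ps in inhibitory neurons with CamKII-CreER was -0.09, and without the highest nucleus of each pool it was -2.68. Capn11 and Nlrp5-ps, 2 of the 5 genes, were lower by log2 -1 or more in both classes and in both formats, as were 0.0503% of all ranked genes. The rule used these formats, so the count is a description.

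Baiap3, Meis1 and Nog were less even. Baiap3 differed by -1.84, -1.37 and -0.01 in excitatory and by -2.39, -0.51 and 1.22 in inhibitory neurons. The first of these values moved to -0.45 when only neurons with a 4-fold difference between Slc17a7 and Gad1 were kept, in the pools where Gad1 in excitatory neurons was unequal. Meis1 differed by -0.81, -0.90 and 0.56 in excitatory and by -2.27, -0.48 and 0.36 in inhibitory neurons. Its excitatory values were -0.25, -0.58 and 0.56 with the 4-fold requirement but -1.80, -1.80 and -0.16 with classes by sums of markers, so they depended on the classing. Nog differed by -1.31, -1.16 and 0.17 in excitatory and by -0.97, -1.20 and -0.77 in inhibitory neurons.

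Each het pool was also given the class shares of its control pool. Neurons with no class drop out of this step, so the difference among neurons with a class is given first. Capn11 was at -1.49, -2.98 and -4.40 among these neurons in the 3 pairs, and at -1.55, -3.08 and -4.40 with the shares of the control. Nlrp5-ps was at -2.24, -2.05 and -1.71, and then at -2.33, -2.09 and -1.68. Nog was at -1.36, -1.36 and -0.38, and then at -1.12, -1.18 and -0.34. Of these 3 genes Nog moved most. Meis1 was at -1.88, -0.88 and 0.40, and then at -1.71, -0.70 and 0.45. Baiap3 was at -2.36, -1.14 and 0.75, and then at -2.16, -0.73 and 0.83. The largest move on setting the shares was that of the 384-well value of Baiap3, and every gene stayed below 0 in both pairs that chose it.

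**Figure D4:**
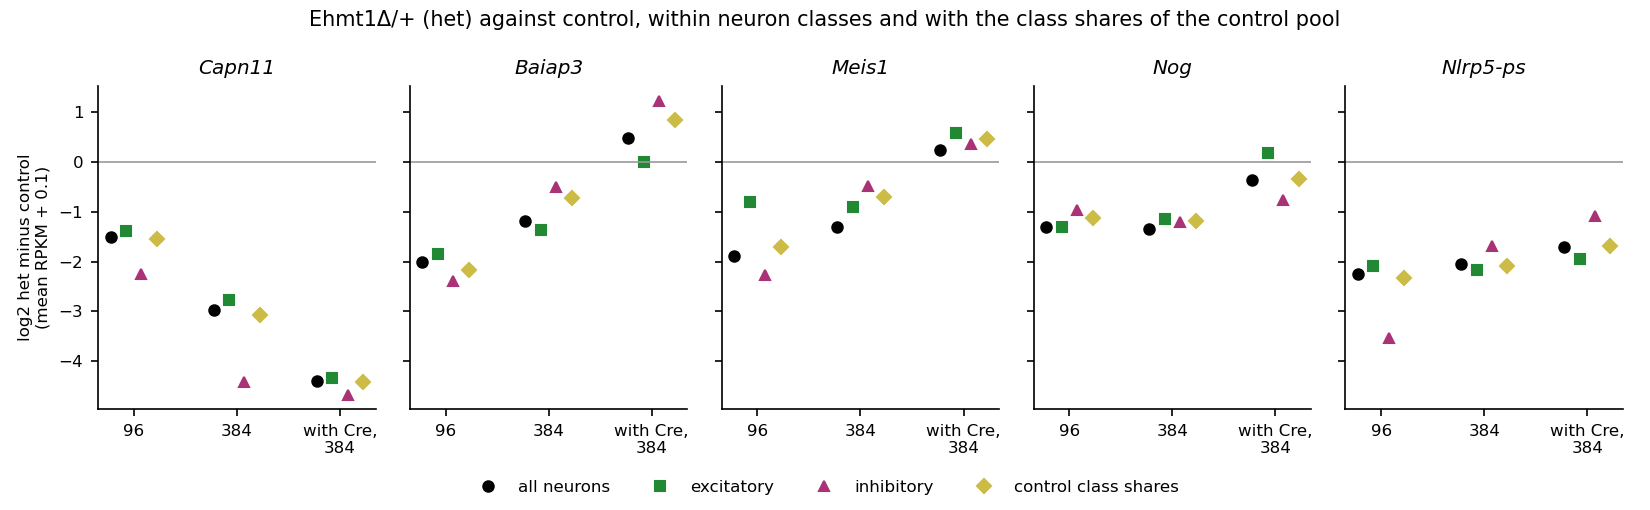
Het minus control on log2(mean RPKM + 0.1) for each gene in all neurons (circles), excitatory neurons (squares), inhibitory neurons (triangles) and with the class shares of the control pool (diamonds), for the 96-well, the 384-well and the CamKII-CreER pair (with Cre). Each point is a difference of 2 pools without an error bar. Capn11 and Nlrp5-ps lie below -1 throughout, and Baiap3 and Meis1 lie above 0 in inhibitory neurons of the pair with CamKII-CreER.

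Inhibitory neurons were further grouped by which marker led in each nucleus, and these groups are small. Baiap3 was at 36.7 and 14.96 RPKM (WT and het, 96-well), 108.97 and 45.04 (384-well), and 18.3 and 138.6 (with CamKII-CreER) in neurons led by Sst. In neurons led by Lamp5 it was 61.1 and 2.06, 34.1 and 20.2, and 53.1 and 73.1. Those led by Pvalb, the parvalbumin gene of fast-spiking cells, held less in every pool: 8.84 and 0.756, 21.5 and 1.36, and 3.93 and 0.806. Mean Nog was instead higher in neurons led by Pvalb than in those led by Sst. It was 2.91 and 2.71, 5.35 and 3.73, and 4.22 and 2.43 RPKM with Pvalb in the lead. Reads of Nog were present there in 6 of 13 and 4 of 9, 10 of 16 and 6 of 8, and 8 of 16 and 4 of 12 nuclei. In neurons led by Sst, Nog was 1.70 and 0.114, 0.516 and 0.0529, and 1.302 and 1.041. It was 0 in the few neurons led by Vip in all 6 pools, at most 0 of 10 in a pool, which allows a share of up to 30%. Capn11 was at 1.48 and 0.369, 11.2 and 0.327, and 16.3 and 0.301 in neurons led by Pvalb. In those led by Sst it was at 0.0961 and 0.0712, 5.70 and 0.0339, and 5.03 and 0.807, so the difference there was small in the 96-well plates (log2 -0.20) and larger in the other pairs (-5.44 and -2.50).

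The 96-well plates carry 4 plate codes per genotype in their labels, which gives a view within the format. Mean Capn11 per code was 0.556, 1.05, 0.717 and 1.35 RPKM in WT and 0.121, 0.307, 0.484 and 0.107 in het neurons. Nlrp5-ps was at 1.06, 1.05, 0.948 and 1.28 in WT and at 0.00481, 0.0853, 0.405 and 0.0749 in het. Baiap3 was at 10.4, 10.997, 20.7 and 13.5 in WT and at 4.57, 1.32, 6.52 and 0.993 in het. None of these 3 genes overlapped between the genotypes. Meis1, at 1.58, 0.424, 0.494 and 2.08 in WT and 0.138, 0.0583, 0.399 and 0.338 in het, did not overlap either, although 0.424 and 0.399 are close. Nog overlapped, at 0.366, 0.969, 0.146 and 0.843 in WT and 0.370, 0.191, 0.0609 and 0.116 in het. All WT codes were above all het codes for 4 of the 5 genes and for 8.93% of the ranked genes. Of the codes, 002, 004 and 005 occur in both genotypes. Such a code is not 1 shared plate, since both genotypes together have more nuclei under each than the 96 wells of a plate, and whether it marks a shared batch is not given. WT was above het in 3 of 3 shared codes for Capn11, Baiap3, Meis1 and Nlrp5-ps and in 1 of 3 for Nog, whose log2 differences were 0.01, 0.24 and -2.55. In inhibitory neurons of these codes Nog differed by 0.80, 3.73 and -4.41, on 9 to 19 nuclei each. These plates chose the genes and the codes may share mice, so the count is a description. The order within shared codes was not counted over all genes. The inhibitory share was 19.7% to 29.2% in the WT codes and 13.4% to 22.5% in the het codes.

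**Figure D5:**
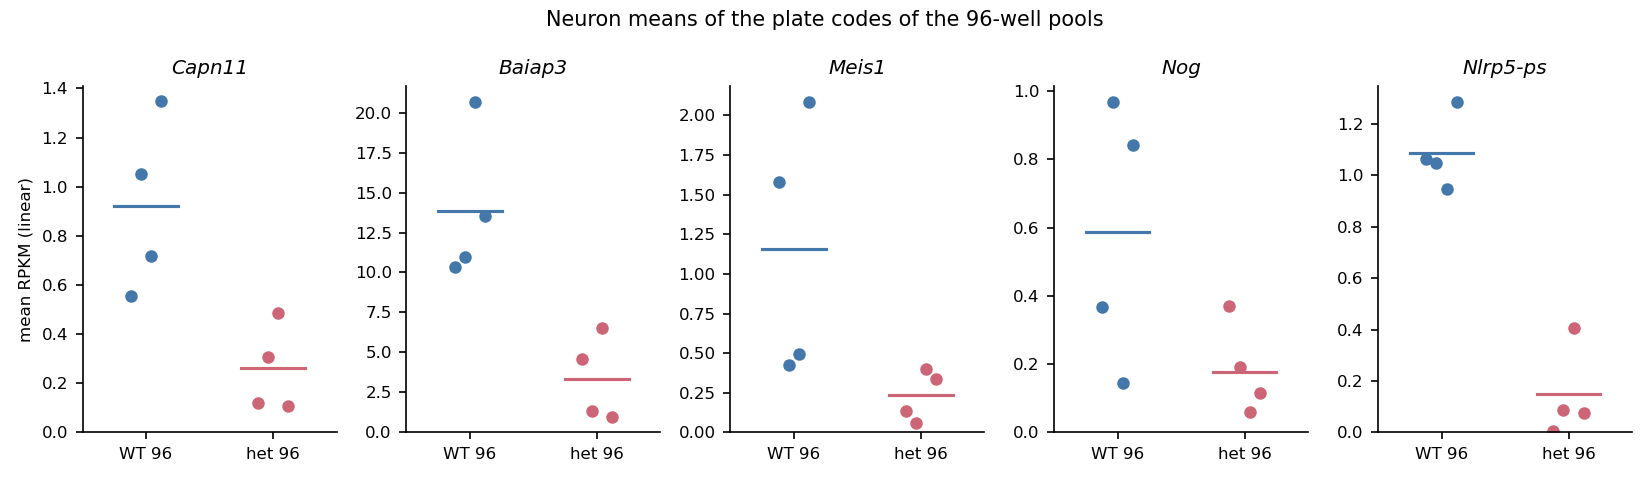
Mean RPKM of each gene in the neurons of each 96-well plate code, on a linear axis that differs between the genes, with 4 codes of the WT pool and 4 of the het pool as points and the mean of the whole pool as a line. The points of WT and het are apart for Capn11, Baiap3, Meis1 and Nlrp5-ps and overlap for Nog.

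Outside neurons the genes differed in where they were found. Meis1 was high in oligodendrocytes in all pools, at 6.50 RPKM in WT (59 of 73 nuclei) and 8.09 in het (57 of 71) in the 96-well plates. It was 6.54 (36 of 69) and 4.39 (25 of 46) in the 384-well format, and 4.26 (31 of 71) and 5.36 (44 of 67) with CamKII-CreER. Those differences were small and of mixed sign (log2 0.31, -0.57 and 0.33). Glia of the 384-well plates were shallow, with median reads of 39940 to 54877 against 441701 to 510639 in the 96-well plates, so their shares of nuclei with a read cannot be compared across formats.

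Capn11 was lower in het oligodendrocytes as well, although few nuclei held it. It was at 0.996 RPKM in WT (6 of 73 nuclei) and 0.0684 in het (2 of 71) in the 96-well plates. In the 384-well format it was at 1.19 (4 of 69) and 0 (0 of 46, which allows a share of up to 6.52%). With CamKII-CreER it was at 4.02 (8 of 71) and 0.260 (1 of 67). The log2 differences were -2.70, -3.69 and -3.52 on log2(RPKM + 0.1). These oligodendrocytes also held reads of neuron genes. The 5 neuron markers summed to 73.5 RPKM in WT and 26.6 in het oligodendrocytes of the 96-well plates. They summed to 14.0 and 9.18 in the 384-well format, and to 28.6 and 24.6 with CamKII-CreER. The part of such reads in the Capn11 values was not tested. Of the 3 genes detected well enough to compare in oligodendrocytes, 1, Capn11, was lower by log2 -1 or more in all 3 pairs, against 0.328% of 19488 genes. In microglia Capn11 was seen in 1 of 36 WT and 1 of 32 het nuclei of the 96-well plates and in 0 of 16 and 0 of 19 nuclei of the 384-well pair, which allow shares of up to 18.8% and 15.8%. The control pool with CamKII-CreER had 6 of 20 microglia with reads and a mean of 34.9 RPKM, and its het partner 0 of 23, which allows a share of up to 13.04%.

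The other 3 genes were found in fewer glia or at lower levels, with exceptions in microglia. Baiap3 in oligodendrocytes was at 0.341 RPKM in WT (23 of 73) and 0.163 in het (14 of 71) of the 96-well plates, 0.481 (7 of 69) and 1.42 (6 of 46) in the 384-well format, and 1.10 (8 of 71) and 0.764 (8 of 67) with CamKII-CreER. These levels were below those in excitatory neurons in each pool. In microglia Baiap3 was at 2.77 RPKM in WT (11 of 36 nuclei) and 0.969 in het (10 of 32) of the 96-well plates, the first of which is above the level in excitatory neurons of the het pool. In the other 4 pools it was seen in 1 of 16, 0 of 19, 3 of 20 and 0 of 23 microglia. These microglia also held reads of neuron genes. The 5 neuron markers summed to 70.9 RPKM in 96-well WT, 17.2 in 96-well het and 1.74 to 11.8 in the other microglia. Gad1 was above 0 in 66.7% of 96-well WT and 43.8% of 96-well het microglia. The part of such reads in the Baiap3 values was not tested. Nog was above 0 in at most 1 oligodendrocyte per pool. A single microglial nucleus of 32 in the 96-well het pool held Nog, at 22.7 RPKM, which alone gave a mean of 0.710, and the microglia of the other 5 pools held none. Nlrp5-ps was found in 1 of 73 oligodendrocytes of the 96-well WT pool and in no other glial nucleus, for example 0 of 71 in the 96-well het pool, which allows a share of up to 4.23%.

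The genes next to each of the 5 on the chromosome were examined as well. Of the 5 detected genes on either side of each, 10 per gene, none was lower by log2 -1 or more in both formats. In the 96-well plates alone this was so for Hsp90ab1 (-1.16) near Capn11, Mir3547 (-1.25), which overlaps Baiap3, and Glns-ps1 (-1.62) near Meis1. In the 384-well format and in the pair with CamKII-CreER it was so for none of them. Over the 23853 ranked genes, differences of log2 -1 or lower in both formats ended at rank 33. The absence of such a neighbour in both formats therefore says little. Neighbours of Capn11 had median differences of -0.09, -0.23 and -0.04 in the 3 pairs, where Capn11 had -1.50, -2.98 and -4.39.

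The wider pathways of the 5 genes were read from lists of related genes in a limma fit of genotype over the 4 pools without CamKII-CreER, with plate format as a block. With 2 pools per genotype this fit called 0 of 28103 genes at an adjusted p under 0.05 (smallest adjusted p = 0.541), and 2575 had an unadjusted p under 0.05. In simulated data of this design it recovered 0 of 100 genes changed by log2 1 and 0 of 100 changed by log2 2, so a count of 0 says little. At that unadjusted level 5.96% of all genes were lower and 3.21% higher in het, with a median log2 difference of -0.03 over all genes. Of 8 BMP ligands tested 1 was higher and 0 were lower (median -0.17), and of 13 receptors and signal carriers 1 was higher and 1 lower (-0.02). Among 10 other BMP antagonists 1 was higher and 1 lower (0.10). The higher one, Chrdl2, was at 0.222 and 0.640 RPKM in the 96-well plates and at 0.443 and 0.955 in the 384-well format (log2 1.08, limma adjusted p = 0.541), and at 0.226 and 0.254 in the pair with CamKII-CreER (0.12). Of 3 targets of BMP signalling 1 was lower. This was Id4, an inhibitor of basic helix-loop-helix factors, at 1.20 and 0.216 and at 0.305 and 0.126 RPKM (log2 -2.04 and -0.84, limma adjusted p = 0.541), and at 0.263 and 0.230 in the pair with CamKII-CreER (-0.13).

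None of 9 other TALE homeobox genes passed even the unadjusted level (median -0.12). Pbx3, which encodes a partner of MEIS proteins, was at 3.04 and 1.05, 1.303 and 1.12, and 0.685 and 1.28 RPKM. Of 12 other calpain genes 2 were higher, Capn12 and Capns2, and 1 was lower, Capn2 (median 0.01). The lowest of the 12 was at -0.35. Of 18 Munc13 and dense-core vesicle genes 0 passed the unadjusted level in either direction (0.03), and Scg2, a secretogranin of those vesicles, was at 22.2 and 8.39, 8.08 and 6.25, and 7.33 and 6.59 RPKM. Of 9 NOD-like receptor and maternal complex genes 0 passed as well (-0.02), and Nlrp5 itself was barely present, at 0.00167 to 0.0411 RPKM.

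In the comparison of neuron classes, by contrast, these lists split in both directions after adjustment by limma. Higher and lower in inhibitory neurons were 2 and 2 of 8 BMP ligands, 1 and 5 of 10 antagonists, 3 and 3 of 13 receptors and signal carriers, and 1 and 1 of 3 targets. The counts were 3 and 1 of 9 TALE genes, 4 and 3 of 12 calpains, 6 and 9 of 18 Munc13 and dense-core vesicle genes, and 1 and 3 of 7 NOD-like receptor genes. Pbx3 was higher in inhibitory neurons by log2 2.95 (limma adjusted p = 0.000389), as Meis1 was. Nog was higher in inhibitory neurons, where 5 of the 10 other antagonists were lower.

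Genes that varied most with each of the 5 from neuron to neuron were named where the mean Pearson r within the 6 pools reached 0.2, over 1664 neurons. These values are a description, since nuclei of a pool share libraries and depth. Baiap3 varied with Zcchc12 (mean r 0.53, pools 0.47 to 0.59), Magel2 (0.47) and Zim1 (0.47). Meis1 varied with Pbx3 (0.42, pools 0.13 to 0.57), C79798 (0.30) and Cacng4 (0.30). Nog varied with Adamts15 (0.39), Pvalb (0.34) and Eya4 (0.34), in keeping with its level in neurons led by Pvalb. For Capn11 and Nlrp5-ps no gene reached a mean r of 0.2. Few het neurons held either gene, so the mean r cannot tell whether any gene varied with them.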

How the data were processed

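Per the labels and the study's methods, the reads were trimmed (Fastq-mcf), mapped to mm10 by HISAT2 2.0.4 and counted per gene by featureCounts (Subread 1.5.0), and the authors removed poor nuclei and named cell types from clusters. The authors deposited RPKM values of 52636 genes in 2 tables, 1 per plate format. Reads of overlapping genes were divided, as the values show. RPKM is not a count, so depth and thinned shares come from reads recovered from the RPKM steps (a value within 0.01 of a whole read counted as whole).

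The pool was the unit. Mean RPKM per pool and class was taken as log2(mean + 0.1), so folds of low genes are understated. Inhibitory and excitatory means were compared by limma 3.58.1 (R 4.3.3) with the pool as block, on genes above 0 in at least 5% of neurons, with Benjamini-Hochberg adjustment at 0.05, and by exact sign-flip permutation in Python 3.11.15. Genotype was fitted with plate format as block. On simulated data the class comparison recovered 70 of 100 genes changed by log2 1 and 90 of 100 changed by log2 2, over 27710 genes. P-values measure the spread between these pools, which may be technical.

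The 5 genes are those named by the measured ratios. They and the gene lists were chosen with earlier results of these data known. The named genes are these 5, the genes just outside the limit, the genes that vary most with each and list members with values printed. Hsp90ab1, Mir3547, Glns-ps1, Chrdl2, Id4, Scg2 and the calpains named were picked after their values were seen. Alternatives were the pseudocount, the filter on low values, other definitions of the classes, a variance trend, thinning, and leaving out pools or the highest nucleus.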

Additional observations from a re-analysis of the deposited data

Results flagged for a closer look

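Baiap3 was lower in het neurons in the 96-well and 384-well pairs and higher in the pair with CamKII-CreER, where the log2 difference was 0.48. Meis1 also changed sign in that pair, at 0.23. In both cases the difference between the pairs was not tested, since each pair is 1 pool against 1 pool. Capn11 in microglia, which entered no comparison of the neurons, averaged 34.9 RPKM in the control pool with CamKII-CreER, from 6 of 20 nuclei, whereas each of the other 5 pools had reads in at most 1 nucleus. In groups of 4 plate codes no member's code stood apart from the others by Dixon's criterion.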

How the results depend on the processing

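The calls of Baiap3, Meis1 and Nog as higher in inhibitory neurons were kept under every alternative but 1 in which they were tested. Meis1 and Nog were not tested when only genes above 0 in at least 20% of neurons were kept. With only the 2 CamKII-CreER pools the fit called 0 genes higher and 0 lower (6587 at an unadjusted p under 0.05), and limma gave log2 3.19 for Baiap3 (adjusted p = 0.0814), 2.35 for Meis1 (0.0580) and 2.33 for Nog (0.0896). Fewer pools make this alternative. Without both 96-well pools, an alternative chosen after seeing the data, 3109 genes were higher and 3397 lower. Leaving out 1 pool at a time gave 4194 to 4642 genes higher and 4247 to 4527 lower. The difference of Capn11 turned to 0.033 with the 2 CamKII-CreER pools, and that of Nlrp5-ps to 0.070 without the 96-well het pool (-0.49 to 0.070 over pools left out 1 at a time), 0.10 without both 96-well pools and 0.90 with the 2 CamKII-CreER pools. None of these 4 values had passed the threshold. With a pseudocount of 1, Capn11 alone, 1 gene, was lower by log2 -1 or more with CamKII-CreER, and 0 genes were so in both classes and formats. With classes by sums of markers the inhibitory share of the 384-well WT pool was 19.3%. Genotype calls stayed at 0 under all 4 alternatives. Of the recomputed differences, 54 within classes and 5 of 25 in the pair with CamKII-CreER moved by more than the SD over the 3 pairs. Leaving out neurons without a class, also chosen after seeing the data, kept 2 genes lower with CamKII-CreER. The cause was not tested. No paired analysis was possible because no mouse numbers are given and a plate code that both genotypes share is not a shared plate; the differences within the 3 shared codes stand with the plate codes. Depth limits the shares of Nlrp5-ps and Nog in single pools, where a share near 0 cannot be told from absence.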
